A study of Arabidopsis thaliana with 6 samples.

Results

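The light repressor genes described here are *COP1*, the 4 *SPA* genes (*SPA1* to *SPA4*), *DET1*, *COP10*, *DDB1A*, *DDB1B* and *CUL4* of *Arabidopsis thaliana*. They were taken as a list of locus codes. A probe was assigned to a gene when its transcript name began with that code. The 10 genes had 13 probes, out of 43603 probes and 29030 genes on the array. All 10 genes were among the 21590 genes that could be tested. Total RNA was taken from whole seedlings of the Col accession at an age of 3 days. The plants had grown on sucrose-free MS medium in continuous white light. There were 3 wild-type (WT) arrays and 3 arrays of *hy5*, a line with the T-DNA insertion SALK_096651 in the *HY5* gene. The contrast rests on 1 mutant allele. Each array was hybridized with Cy3-labeled cRNA, and the sources used here do not say whether the 3 replicates were separate plant samples. The p-values therefore measure the spread between these arrays, which may be technical.

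COP1 is a RING-type E3 ubiquitin ligase that works in the nucleus together with the SPA proteins, a plant family with a kinase-like domain, a coiled coil and WD40 repeats. In darkness the COP1-SPA complex marks transcription factors that promote light responses, HY5 among them, for breakdown by the proteasome. Phytochromes and cryptochromes curb this complex in the light, and HY5 then accumulates and binds the promoters of many light-regulated genes. DET1, COP10 and DDB1 form another complex that represses light development, and COP10 resembles a ubiquitin-conjugating enzyme. CUL4 is the cullin scaffold that joins DDB1 with its substrate adaptors, and both the COP1-SPA and the DET1 complexes are attached to it. Mutants of *COP1*, *DET1* and *COP10* develop in darkness much as light-grown seedlings do. The *hy5* mutant has the opposite defect, a long hypocotyl in the light.

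In *hy5*, most of these repressor genes had lower transcript signals than in WT, relative to the 75th percentile of each array. *SPA4* fell 3.04-fold, *SPA3* 2.77-fold, *COP1* 2.35-fold and *DET1* 2.31-fold. *SPA1* fell 1.52-fold and *CUL4* 1.51-fold. *COP10* moved the other way and rose 1.38-fold. *SPA2*, *DDB1A* and *DDB1B* did not pass the test. These folds come from limma on log2 signals, with p-values adjusted by the Benjamini-Hochberg method over the 21590 tested genes.

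At an adjusted p under 0.05, 6 of the 10 genes were lower in *hy5*, against 26.6% of all tested genes. At the same threshold 1 of the 10 was higher, against 26.3% of all tested genes. With the further demand of a change of at least 2-fold, 4 of the 10 were lower, against 4.84% of all genes, and 0 of the 10 were higher, against 6.55%. All 3 *hy5* arrays lay below all 3 WT arrays for 7 of the 10 genes, against 31.7% of all genes. They lay above them for 1 of the 10, against 30.8%. The median log2 difference (*hy5* minus WT) was -0.60 over the 10 genes and -0.0044 over all tested genes. The *COP1* and *SPA* genes had a median of -1.23, with 4 of 5 lower at an adjusted p under 0.05. *DET1*, *COP10*, *DDB1A* and *DDB1B* had a median of -0.023, with 1 lower and 1 higher.

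**Figure D1:**
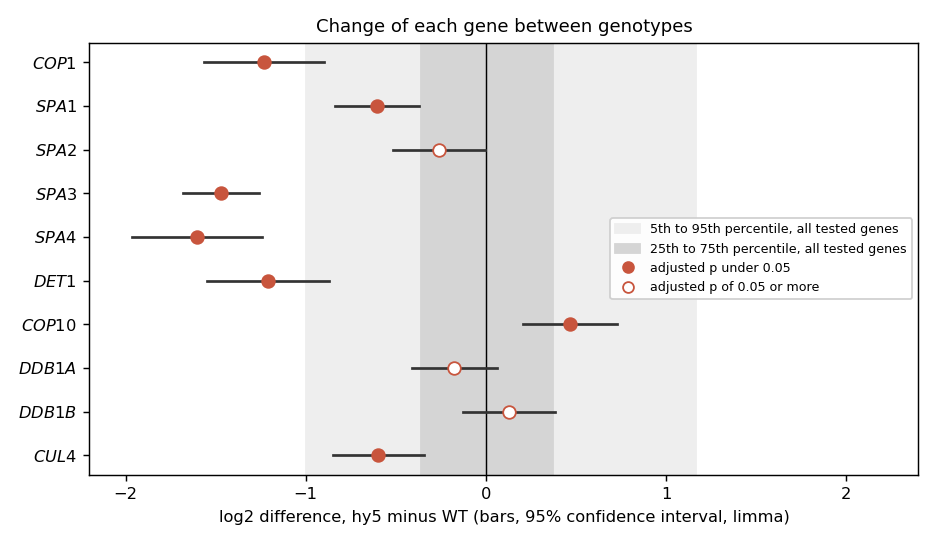
Log2 difference between *hy5* and WT, relative to the 75th percentile of each array, for each of the 10 genes (x axis), with bars for the 95% confidence interval and grey bands for the central ranges of all tested genes. *COP1*, *SPA3*, *SPA4* and *DET1* lie below the 5th percentile of all tested genes, and *COP10* is the only filled point to the right of 0.

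The signals are given as multiples of the 75th percentile of their own array, taken over all spots that are not controls. This scale has a bearing on every direction reported here. The percentile itself was an intensity of 487 to 558 on the WT arrays and 981 to 1057 on the *hy5* arrays, a log2 shift of 0.93. The 10 spike-in control probes, which match no plant transcript, shifted by between -0.69 and 0.011 without scaling, with a median of -0.59. Scaling to that median instead would add 1.52 to the log2 difference of every gene, and 1 of the 10 repressor genes, *SPA4*, would then still be below 0. The WT arrays shared a slide and a scan session and the *hy5* arrays shared another of each, so slide and scan cannot be told apart from the genotype. *HY5* itself, as a check of the labels, had signals of 1.32, 1.38 and 1.24 in WT and of 0.0217, 0.0283 and 0.0169 in *hy5*, which is 60.1-fold lower (log2 difference -5.91, SE 0.178, limma adjusted p = 7.57e-06). The seedlings also differed in markers of other tissues. The summed signal of 9 seed maturation genes was 0.603 to 1.44 in WT and 7.28 to 13.4 in *hy5*. Of these genes 8 were higher at an adjusted p under 0.05, but 4 of the 9 entered the test through the *hy5* arrays alone, where they were bright enough. All 3 root hair genes were higher, with sums of 5.59 to 7.39 against 8.69 to 10.8. Of 4 genes of green tissue 3 were lower, with sums of 995 to 1148 against 789 to 860. Over all tested genes, 26.3% were higher and 26.6% lower at that threshold. Without scaling, the log2 differences of the 4 green tissue genes were positive, from 0.42 to 0.88. On every array, 5 of the seed genes and all root hair and green tissue genes were well above background. Each of the 16 markers was well above background on at least 1 array. In whole seedlings a smaller share of expressing cells and less RNA per cell cannot be told apart, and the part of these tissue markers in the results was not tested.

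*COP1* (AT2G32950), the E3 ligase, had signals of 1.65, 1.58 and 1.66 in the WT replicates 1 to 3 and of 0.855, 0.583 and 0.667 in the *hy5* replicates 1 to 3. The WT arrays lay close together, and the highest *hy5* array was still far below the lowest WT array, by 0.88 on the log2 scale. The mean was 1.63 ± 0.0448 (SD, n = 3) in WT and 0.702 ± 0.139 (SD, n = 3) in *hy5*. The log2 difference of *COP1* was -1.23 (SE 0.143, 95% confidence interval -1.57 to -0.90, limma adjusted p = 0.000421), and 2.64% of the tested genes had a lower one.

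The *SPA* genes fall into a pair, *SPA1* and *SPA2*, known for their part in darkness, and a pair, *SPA3* and *SPA4*, known for their part in light-grown plants. *SPA3* (AT3G15354) measured 6.65, 6.45 and 7.28 in WT and 2.41, 2.39 and 2.54 in *hy5*. The *hy5* arrays of *SPA3* were nearly equal, and the gap between the genotypes was 1.34 on the log2 scale, the widest among the 10 genes. Its log2 difference was -1.47 (SE 0.0901, interval -1.68 to -1.26), with a limma adjusted p of 3.51e-05. *SPA4* (AT1G53090) gave 1.13, 1.08 and 1.12 in WT and 0.462, 0.302 and 0.347 in *hy5*. Here the mutant arrays were spread apart, but the gap to WT was 1.22. The log2 difference of *SPA4* was -1.60 (SE 0.155, interval -1.96 to -1.24, limma adjusted p = 0.000194). It was the lowest of the 10 genes, and 1.06% of all tested genes were lower still.

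*SPA1* (AT2G46340), the founding member of the family, measured 2.55, 2.38 and 2.48 in WT and 1.67, 1.46 and 1.75 in *hy5*. The groups did not overlap, and the change was smaller than that of *SPA3* or *SPA4*. Its log2 difference was -0.60 (SE 0.0998, interval -0.84 to -0.37, limma adjusted p = 0.00196), and 13.8% of genes were lower. *SPA2* (AT4G11110) measured 0.339, 0.378 and 0.344 in WT and 0.281, 0.272 and 0.334 in *hy5* with its brightest probe. The highest mutant array came within 0.018 on the log2 scale of the lowest WT array. The log2 difference of this probe was -0.26 (SE 0.110, interval -0.52 to -0.0050), with a limma adjusted p of 0.0799, so that the call for *SPA2* was not made.

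*SPA2* was the only one of the *SPA* genes with several probes, and the probes lay on different sides of the threshold. A dimmer probe measured 0.232, 0.228 and 0.270 in WT and 0.160, 0.157 and 0.172 in *hy5*. With this probe the groups were well apart, with a log2 difference of -0.57 (SE 0.102, limma adjusted p = 0.00274 over all tested probes). The dimmest probe measured 0.0174, 0.0225 and 0.0249 in WT and 0.0156, 0.0157 and 0.0198 in *hy5*. It was well above background on 2 of the 3 WT arrays and on all 3 *hy5* arrays, its groups overlapped, and its log2 difference of -0.34 did not pass the test (limma adjusted p = 0.113). All 3 probes of *SPA2* thus had lower means in *hy5*, and 1 of the 3 passed the threshold.

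**Figure D2:**
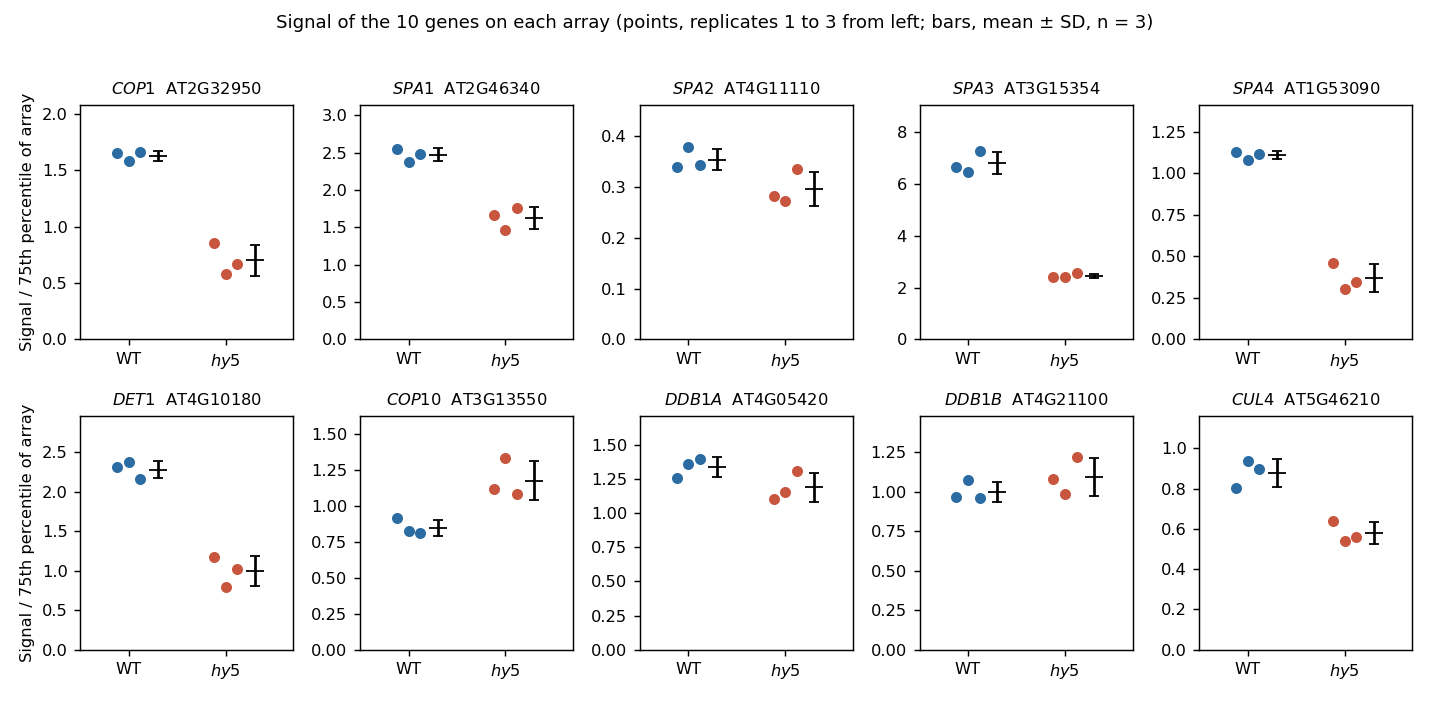
Signal of the 10 genes on each array, as a multiple of that array's 75th percentile (y axes from 0, a scale for each gene), for the 3 WT and 3 *hy5* arrays as points, with the mean ± SD beside them. The *hy5* points of *COP1*, *SPA1*, *SPA3*, *SPA4*, *DET1* and *CUL4* all lie below the WT points, those of *COP10* lie above, and those of *DDB1A* and *DDB1B* overlap.

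*DET1* (AT4G10180), the nuclear protein that gives the second complex its name, measured 2.31, 2.37 and 2.15 in WT and 1.17, 0.797 and 1.02 in *hy5*. The mutant arrays were all lower, with a gap of 0.88 on the log2 scale. The mean was 2.28 ± 0.111 (SD, n = 3) in WT and 0.997 ± 0.188 (SD, n = 3) in *hy5*. The log2 difference of *DET1* was -1.21 (SE 0.146, interval -1.55 to -0.87, limma adjusted p = 0.000497).

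The partners of DET1 did not follow it. *COP10* (AT3G13550, also called *FUS9*) measured 0.912, 0.826 and 0.809 in WT and 1.11, 1.33 and 1.08 in *hy5*. All mutant arrays were higher, by at least 0.25 on the log2 scale, with replicate 2 the highest. Its log2 difference was 0.47 (SE 0.111, interval 0.21 to 0.72, limma adjusted p = 0.0098), and 79.7% of genes had a lower one. This call was lost with the dimmest tested probe in place of the brightest (log2 0.56, adjusted p = 0.0854) and with the methods' t-test after Benjamini-Hochberg adjustment (adjusted p = 0.0873). That dimmer probe, designed to another transcript of *COP10*, measured 0.0166, 0.00887 and 0.0108 in WT and 0.0203, 0.0169 and 0.0147 in *hy5*. It was not well above background on any WT array, so it entered the test through the *hy5* arrays alone, and its groups overlapped.

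DDB1 is the adaptor that binds CUL4 on one side and DET1 or a WD40 protein on the other, and it is encoded by a pair of closely related genes. *DDB1A* (AT4G05420) measured 1.26, 1.36 and 1.40 in WT and 1.10, 1.15 and 1.31 in *hy5*. *DDB1B* (AT4G21100) measured 0.965, 1.07 and 0.960 in WT and 1.08, 0.985 and 1.22 in *hy5*. In both genes the groups overlapped. The log2 difference was -0.17 for *DDB1A* (SE 0.101, interval -0.41 to 0.061, limma adjusted p = 0.181) and 0.13 for *DDB1B* (SE 0.109, interval -0.13 to 0.38, limma adjusted p = 0.349). Near-identical genes can share probe signal, and the values of this pair are uncertain to that extent.

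*CUL4* (AT5G46210), the scaffold common to both complexes, measured 0.800, 0.936 and 0.897 in WT and 0.641, 0.538 and 0.561 in *hy5*. The mutant arrays were all lower, with a gap of 0.32 on the log2 scale. The log2 difference of *CUL4* was -0.60 (SE 0.108, interval -0.85 to -0.35, limma adjusted p = 0.00297). It was close to that of *SPA1*, and 14.0% of all genes were lower.

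Without any scaling, the intensities of these genes gave another picture, because the 75th percentile itself was higher on the *hy5* arrays. *COP1* had intensities of 805 to 925 in WT and 573 to 870 in *hy5*. *SPA3* went from 3242 to 4061 in WT to 2345 to 2690 in *hy5*, *SPA4* from 549 to 623 to 296 to 470, and *DET1* from 1125 to 1319 to 782 to 1191. The groups of *SPA3* and *SPA4* were still apart without scaling, whereas those of *COP1* and *DET1* overlapped. These 4 genes were the ones with a negative unscaled log2 difference, of -0.30 for *COP1*, -0.54 for *SPA3*, -0.67 for *SPA4* and -0.27 for *DET1*. The directions of *SPA1* (0.33), *SPA2* (0.67), *DDB1A* (0.76) and *CUL4* (0.34) turned positive without scaling, and *COP10* (1.40) and *DDB1B* (1.06) were positive on either scale. The falls of *SPA1* and *CUL4* are thus falls relative to the other genes of the array.

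Differences between 2 genes of the same array do not depend on that scale. For each of the 45 pairs, the log2 ratio of both signals was taken within every array and compared between genotypes. With 3 arrays against 3 the smallest p of an exact permutation test is 0.1 (0.118 after adjustment over the 45 pairs), so none could pass 0.05. The ratio of *SPA4* to *COP10* shifted by -2.07 (SE 0.256), that of *COP1* to *COP10* by -1.70, and that of *DET1* to *COP10* by -1.67 (SE 0.254). Within the DET1 complex the transcripts of the named subunit and of its COP10 partner therefore moved apart, with no overlap between genotypes. *COP1* and *DET1*, from different complexes, kept nearly the same ratio, with a shift of -0.025 (SE 0.0817) and overlapping groups (exact permutation p = 0.8). *SPA1* and *CUL4* shifted by -0.0060 against each other (exact permutation p = 1). Within the *SPA* family the shift was 0.87 between *SPA1* and *SPA3* and 1.00 between *SPA1* and *SPA4*. It was 1.21 between *SPA2* and *SPA3* and 1.34 between *SPA2* and *SPA4*. In each case the larger decrease was in *SPA3* or *SPA4*. The ratios with *SPA2* use its brightest probe (log2 difference -0.26). A dimmer *SPA2* probe gave -0.57, so the sizes of the shifts against *SPA2* depend on the probe. Between *SPA3* and *SPA4* the shift was 0.13, with overlap (exact permutation p = 0.6). *DDB1A* shifted by -0.30 against *DDB1B* (SE 0.0842), without overlap, though these related genes may share probe signal. Of the 45 pairs, 38 did not overlap between genotypes, so a lack of overlap was the usual outcome among them. These pairs share genes and are not independent of each other. Among single tested genes, 30.8% were higher and 31.7% lower in *hy5* without overlap. The share among pairs of other genes was not counted, so whether 38 of 45 is particular to these genes was not tested.

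The arrays of *hy5* were spread more widely than those of WT for these genes. The SD of the log2 signals was larger in *hy5* for 9 of the 10 genes, against 59.5% of all tested genes. *COP1*, *SPA4* and *DET1* stood out, with coefficients of variation of 19.8%, 22.4% and 18.9% in *hy5* and of 2.75%, 2.21% and 4.88% in WT. An SD in *hy5* as large as that of *DET1* was found for 12.7% of all tested genes. *SPA3*, which fell about as far as *SPA4*, was the exception, with 6.37% in WT and 3.42% in *hy5*. The same arrays were high and low in the 3 genes that varied. Replicate 1 of *hy5* lay above its group's mean by 0.30 for *COP1*, 0.34 for *SPA4* and 0.25 for *DET1* on the log2 scale. Replicate 2 deviated by -0.25 for *COP1*, -0.27 for *SPA4* and -0.31 for *DET1*. Over the 6 genes that fell, the median deviation was 0.20 on replicate 1, -0.20 on replicate 2 and 0.0063 on replicate 3, while over all 5733 genes that were lower at an adjusted p under 0.05 it was 0.044, -0.043 and -0.0020. *COP1*, *SPA4* and *DET1* thus shared a pattern among the mutant arrays as well as a change between genotypes. The pattern, with replicate 1 highest and replicate 2 lowest, was not particular to them. *CUL4* deviated by 0.148, -0.105 and -0.0426 on the *hy5* replicates 1 to 3. *HAF01* (AT1G32750), which is not one of the 10 genes, had *hy5* signals of 0.697, 0.495 and 0.545. It was picked as the gene with the profile nearest to *COP1* on these arrays, so its like order follows from that choice. The share of all tested genes with this order was not counted. With 3 arrays a group, no test of this pattern was made.

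**Figure D3:**
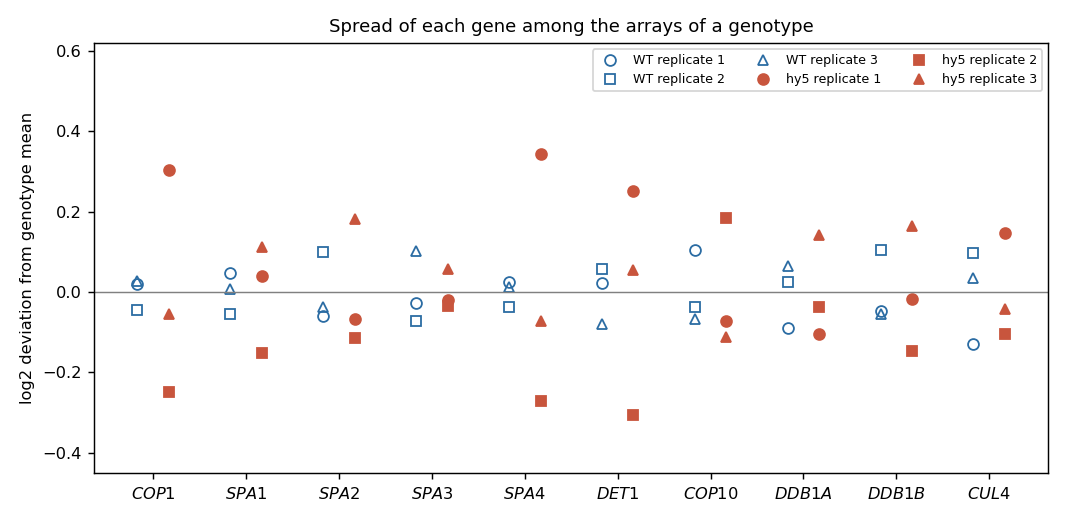
Log2 deviation of each array from the mean of its genotype (y axis) for the 10 genes, with open symbols for WT and filled symbols for *hy5*, and a shape for each replicate number. In *COP1*, *SPA4* and *DET1* the *hy5* replicate 1 lies 0.25 to 0.34 above the mean and replicate 2 lies lowest.

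Other genes of the pathway were taken from lists of its parts. The COP9 signalosome removes the ubiquitin-like NEDD8 from cullins such as CUL4, and its mutants share the light-like growth in darkness of *cop1* and *det1*. Of its 10 subunit genes 4 were higher and 0 lower in *hy5* at an adjusted p under 0.05, against 26.3% and 26.6% of all tested genes, with a median log2 difference of 0.20. The changes were below 2-fold, at 0.64 for *CSN6B* (limma adjusted p = 0.00704, but 0.0815 with the methods' t-test after Benjamini-Hochberg adjustment), 0.59 for *CSN5B* (0.00542), 0.37 for *CSN6A* (0.0138) and 0.28 for *CSN3* (0.0475). *CSN3* is outside the rule for naming and was named after its value was seen, and its call held in 9 of 19 alternative settings. It was lost without WT replicate 1, 2 or 3 (adjusted p = 0.158, 0.111 and 0.0518) and without *hy5* replicate 1 or 3 (0.0933 and 0.139). Other losses included scaling to the median (adjusted p = 0.0662) and a replicate block (0.0749). The call for *CSN6A* was lost without *hy5* replicate 3 (adjusted p = 0.0511). *CSN5B* lay at -0.17 under another background correction (normexp, adjusted p = 0.0879). As paralogs, *CSN6A* and *CSN6B* may share probe signal.

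Of 14 genes for partners and substrate adaptors of CUL4, 13 could be tested, of which 5 were lower and 2 higher, against 26.6% and 26.3% of all tested genes, with a median log2 difference of -0.16. *RUP1*, which encodes a WD40 protein that ends the response to UV-B light, measured 6.14, 5.41 and 6.67 in WT and 1.60, 2.72 and 1.98 in *hy5*. It was far lower on every mutant array, with a log2 difference of -1.56 (limma adjusted p = 0.000529). Its close relative *RUP2* measured 13.4, 12.6 and 12.6 in WT and 5.42, 8.37 and 6.20 in *hy5*, a log2 difference of -0.97 (limma adjusted p = 0.00182). Both *RUP* genes were highest on replicate 2 among the mutant arrays, where *COP1*, *SPA4* and *DET1* were lowest. *CAND1*, which binds cullins free of NEDD8, fell by 0.81 on the log2 scale (limma adjusted p = 0.00237), but its dimmest tested probe gave -0.25 (adjusted p = 0.163), and its call was lost with the methods' t-test after adjustment (adjusted p = 0.0536). *RBX1*, the RING subunit that sits on the cullin, rose by 0.63 (limma adjusted p = 0.00217), and *MSI1*, a WD40 protein of chromatin complexes, rose by 0.50 (limma adjusted p = 0.00373). The scaffold gene *CUL4* and the gene of its RING partner thus moved in opposite directions on this scale. Without scaling, the log2 difference was -0.63 for *RUP1*, -0.040 for *RUP2* and 0.13 for *CAND1*.

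The proteins that COP1 and SPA are known to mark for breakdown were represented by 10 testable genes of 11. Of these, 2 were higher and 3 lower, close to the 26.3% and 26.6% of all tested genes, with a median log2 difference of -0.20. *HYH*, the closest relative of *HY5*, measured 1.18, 1.15 and 0.951 in WT and 0.523, 0.420 and 0.407 in *hy5*, a log2 difference of -1.28 (limma adjusted p = 0.000279). *GI*, a clock and flowering gene, measured 0.332, 0.357 and 0.344 in WT and 0.780, 0.856 and 0.870 in *hy5*, a log2 difference of 1.28 (limma adjusted p = 5.74e-05). Both groups were clearly apart, and the changes were of like size in opposite directions. *CO*, which promotes flowering in long days, was lower by a log2 difference of -0.78 and the B-box gene *BBX25* by -0.52, whereas the B-box gene *BBX22* was higher by 0.58. Among 5 photoreceptor genes whose products act on COP1 and SPA, 3 were lower and 0 higher, against 26.6% and 26.3% of all tested genes, with a median of -0.44. The blue-light receptor genes *CRY1* (-0.71, limma adjusted p = 0.000595) and *CRY2* (-0.44, 0.00612) and the red-light receptor gene *PHYB* (-0.63, 0.00105) were lower. Without scaling, the log2 differences of *CRY1* (0.22), *CRY2* (0.50), *PHYB* (0.31), *CO* (0.15) and *BBX25* (0.41) were positive. That of *HYH* was still negative, at -0.35. *PHYA* (0.15, limma adjusted p = 0.22) and the UV-B receptor gene *UVR8* (-0.18, 0.132) did not pass the test. With the methods' t-test after adjustment the calls for *CO* (adjusted p = 0.0532) and *CRY2* (0.0514) were lost.

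**Figure D4:**
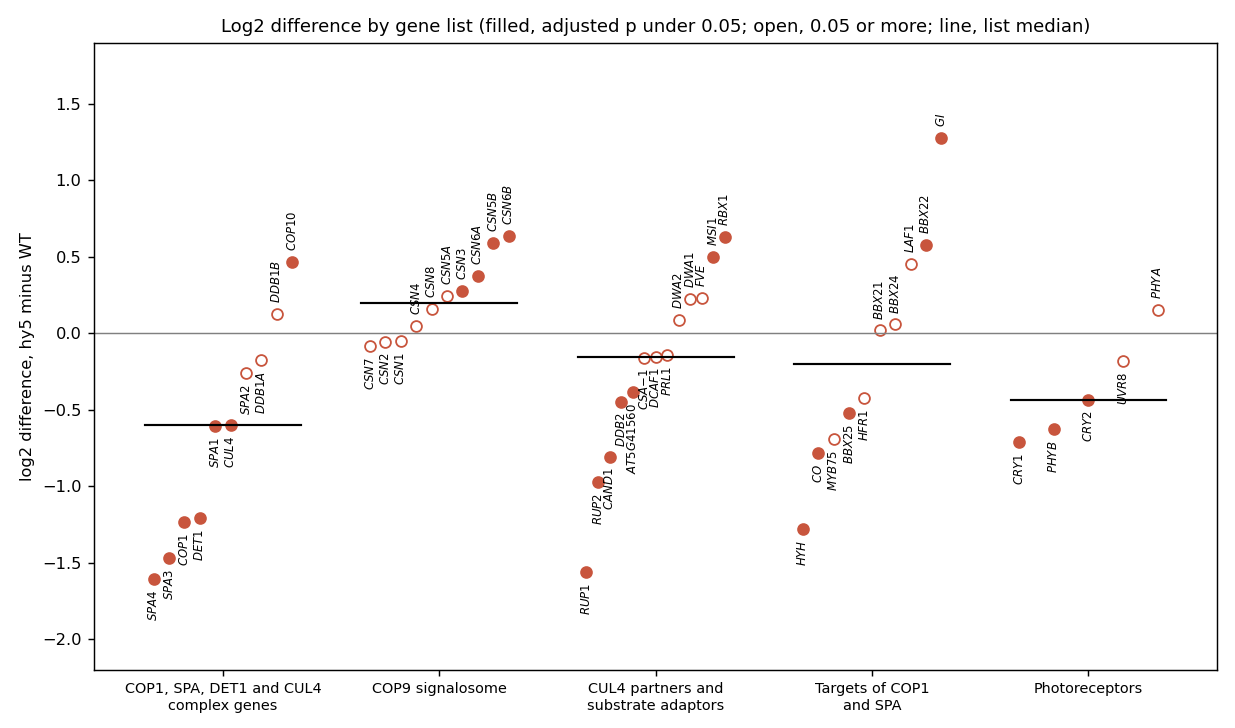
Log2 difference between *hy5* and WT, relative to the 75th percentile of each array (y axis), for the 10 repressor genes and 4 lists of pathway genes (x axis), 1 point per gene and a line at each list's median. The repressor genes have a median of -0.60 and the signalosome genes one of 0.20, and *RUP1*, *HYH* and *GI* lie beyond 1 in size.

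For *COP1* and *SPA1*, the genes with the most similar profile over the 6 arrays were sought by the distance between log2 values centered on each gene's mean. Nearest to *COP1* were *HAF01* (AT1G32750), annotated as a histone acetyltransferase of the TAFII250 family (distance 0.0642, log2 difference -1.25), *emb1579* (AT2G03150, 0.0709, -1.24) and *LINC3* (AT1G68790, 0.0877, -1.23), also called *CRWN3*. Nearest to *SPA1* were AT1G27595 (0.0854, -0.65), *GSL04* (AT3G14570, 0.0855, -0.64), annotated as a glucan synthase-like gene, and AT4G38750 (0.0952, -0.56). The profiles share slide and scan session within each genotype. Of these 6 genes 0 belongs to the pathway lists, which hold only a small part of the 21590 tested genes.

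Over 19 other settings, none of which left the signals unscaled, the log2 difference lay between -1.38 and -1.11 for *COP1*, between -1.52 and -1.29 for *SPA3*, between -1.78 and -1.34 for *SPA4* and between -1.33 and -1.06 for *DET1*, and all 4 stayed past 2-fold and an adjusted p under 0.05 in each. *SPA1* ranged from -0.66 to -0.49 and *CUL4* from -0.67 to -0.55, both below the threshold of adjusted p throughout. *COP10* ranged from 0.37 to 0.52 with its brightest or mean probe signal, and its dimmest probe, not well above background in WT, gave 0.56. *DDB1A* ranged from -0.25 to -0.12 and *DDB1B* from 0.030 to 0.20. *SPA2* ranged from -0.39 to -0.20 and passed the threshold in 3 settings, with normexp (adjusted p = 0.00765), with the mean of its probes (0.0215) and without *hy5* replicate 3 (0.0367).

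**Figure D5:**
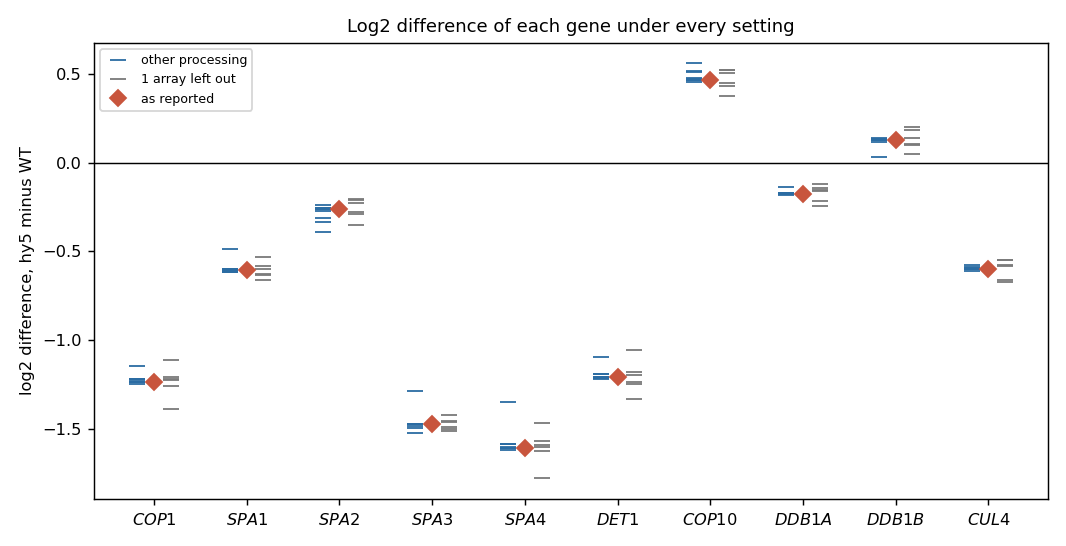
Log2 difference between *hy5* and WT for the 10 genes (y axis), as reported (diamonds), under other processing (blue dashes) and with 1 array left out (grey dashes). All settings used scaled or otherwise normalized signals. No dash crosses 0, and *SPA4*, *SPA3*, *COP1* and *DET1* stay below -1 in each setting.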

How the data were processed

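The 6 arrays were scanned and read with Agilent Feature Extraction 10.7.3, per the submitters' processing notes. The authors deposited the scanner output, which gives every spot a background-subtracted linear intensity (the processed signal) and flags for spots above background. Their deposited normalized table holds ratio values, the intensity over the 75th percentile of its array, and was used as an alternative. Its 38464 entries had divisors of 564 to 644 in WT and 1136 to 1228 in *hy5*.

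Processed signals were divided by the 75th percentile of the non-control spots of the same array and converted to log2. Spots of a probe were averaged, 30 probes with outlier flags were left out, and 0 probes of the repressor genes were among them. Testing required that a probe be well above background on all 3 arrays of WT or of *hy5*. The brightest such probe stood for its gene. Genotypes were compared with limma 3.58.1 (lmFit and eBayes) in R 4.3.3, two-sided, with Benjamini-Hochberg adjustment over 21590 genes, or over all tested probes for further probes of a gene. The scripts were tested on simulated data. The brightest probe of each repressor gene was well above background on every array. The precision is limited by the number of arrays.

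The repressor genes, the gene lists and the tests were chosen with earlier results of these data known. Named were the repressor genes, *HY5*, up to 3 genes per list and direction with the largest change among those at an adjusted p under 0.05 and well above background on all 6 arrays, and the 3 nearest profiles of *COP1* and *SPA1*. *CSN3*, *PHYA*, *UVR8*, *DDB2* and AT5G41560 are outside this rule and were named after their values were seen. Symbols were looked up in the RefSeq gene table of TAIR10.1, where 28595 of 29030 locus codes were found. The array design is older, so no coordinates are given. A planned count of promoter motifs was not run, because no promoter sequence was used here. Alternatives covered background correction (normexp on each spot's median signal and background median, with an offset of 50), normalization, the filter on dim probes, the choice of probe, the deposited table, the prior, a replicate block, the omission of each array in turn and the methods' t-test. No block for slide or scan could be fitted, because 0 slides held both genotypes.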

Additional observations from a re-analysis of the deposited data

How the results depend on the processing

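Of 190 values of the 10 repressor genes under 19 alternatives, 185 kept direction and side of the threshold, 3 gained a call (*SPA2*) and 2 lost one (*COP10*). Lower genes among the 10 numbered 6 to 7, and 4 of the 10 were at least 2-fold lower in each setting. The share of all tested genes that were lower at an adjusted p under 0.05 moved more, from 26.6% to 48.6% with normexp and to 15.1% with the methods' t-test after adjustment, so the contrast between the 10 genes and all genes depends on the setting. The 1 higher gene became 0 with the dimmest tested probe and with the methods' t-test after Benjamini-Hochberg adjustment. Over all genes, 1414 higher and 1046 lower calls became 529 higher calls with normexp, 868 higher calls with that adjusted t-test, and 3664 lower calls without a filter on dim probes. The share of calls that were higher went from 57.5% to 42.2% with normexp and to 27.4% without the filter, and the median of all genes to -0.20 and -0.18. Without adjustment the methods' t-test gave 1263 higher and 972 lower. With 1 array left out, calls ranged from 1285 to 1569 higher and from 984 to 1231 lower. *CSN5B* turned to a log2 difference of -0.17 with normexp. For these changes the cause was not tested. The number of tested genes was 29004 without the filter and 21590 with it.

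Of 494 values of *HY5*, of the pathway genes past an adjusted p of 0.05 and of the nearest profiles, 474 kept their call, 19 lost it and 1 reversed. *CSN6B*, *CSN3*, *CAND1*, *CO*, *CRY2*, *DDB2* and AT5G41560 were those that lost it with the methods' t-test after adjustment. AT5G41560, from the list of CUL4 partners (log2 difference -0.38, limma adjusted p = 0.0124), lost its call without WT replicate 1 (adjusted p = 0.051) and *CSN6A* lost it without *hy5* replicate 3 (0.0511). The deviations of arrays that share a replicate number had correlations of -0.025, -0.087 and 0.085. Such values cannot show whether these arrays were grown or handled together, and the labels do not say. With a replicate block there were 1420 higher and 1050 lower calls, and 6 lower and 1 higher of the 10 genes. No alternative with a slide or scan block was run. Dim probes, such as the dimmest ones of *SPA2* and *COP10*, lie near background, and their differences are the least precise.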
